A study of Mus musculus with 7 samples.

Results

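Mouse chromosome 8 was described through its protein-coding genes in the embryonic stem cell (ESC) line V6.5 and in induced pluripotent stem cell (iPSC) colonies. The members are the genes of the deposited count table that lie on chromosome 8 and are protein-coding in GENCODE release M21 on GRCm38, apart from 14 genes left out by name. They number 1025 of 54838 genes in the table, among 21998 protein-coding genes, and 800 of them passed the filter on low counts in the fit of all 7 libraries. The chromosome was chosen from the ESC minus iPSC difference measured in these libraries, so every value of that comparison below is a description with no test of the members. The comparison of the 2 kinds of iPSC colony played no part in that choice and is tested. The study reprogrammed splenic germinal center (GC) B cells, the antibody-mutating B cells of an immune response, from male mice 9 days after immunization with SRBC. GC B cells (B220+ CD38- Fas+) were sorted in bulk or by an endogenous Myc-GFP reporter of help from T follicular cells, held for 6 days with cytokines on mouse embryonic fibroblasts, and reprogrammed for 10 days with doxycycline and 4 more days without it. The groups are 1 library of V6.5, 3 picked colonies of bulk GC origin (GC colonies) and 3 colonies titled M (M colonies), where M is taken to mean the Myc-GFP sort, which the titles do not spell out. All cultures were kept in serum and LIF, and each colony is 1 clone, from which feeder cells were depleted by 1 passage on gelatin and a pre-plating step of 45 min. The labels name neither the strain nor the donor mouse of a colony, nor a karyotype of any culture.

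When a cell carries an extra copy of a chromosome, most of the genes on it give more RNA, and some are held nearer to their usual level by feedback on the gene itself or on its RNA. Such a buffered gene is called dosage-compensated. An extra chromosome 8 is a well-known change of mouse ESC lines in culture. DNA was not measured here, so the number of chromosome copies in each library is not known, and a level that is raised along a chromosome cannot be told apart from other causes of higher RNA. A ratio of 3 to 2, the ratio of gene copies with an additional chromosome in every cell, is 0.58 on the log2 scale and serves below only as a ruler.

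Promoter sequence was available for 540 of the 800 tested members in RefSeq's tables on GRCm38.p6, and 4 are shown because they stand for the behaviours described below. Rpl13 is a highly expressed member that is higher in ESC, Lamp1 is the most expressed member at an even level, Acta1 is much lower in ESC, and Klhdc4 differs between the colony groups. Each is the 250 bases before the RefSeq start, 5′ to 3′ on the gene's strand, with matches on either strand in capitals. The motifs searched were CCAAT (the CCAAT box), the letters TATAAA of a TATA box, the letters GGGCGG of a GC box and the letters CACGTG of an E-box. The last of them reads the same on both strands, and no matches overlap in the stretches shown.
Rpl13 (chr8:123102100-123102349, plus strand): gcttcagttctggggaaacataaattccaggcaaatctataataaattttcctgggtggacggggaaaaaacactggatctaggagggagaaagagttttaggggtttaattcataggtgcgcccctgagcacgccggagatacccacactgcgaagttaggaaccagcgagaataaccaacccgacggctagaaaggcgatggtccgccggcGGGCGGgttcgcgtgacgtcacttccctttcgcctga
Lamp1 (chr8:13158911-13159160, plus strand): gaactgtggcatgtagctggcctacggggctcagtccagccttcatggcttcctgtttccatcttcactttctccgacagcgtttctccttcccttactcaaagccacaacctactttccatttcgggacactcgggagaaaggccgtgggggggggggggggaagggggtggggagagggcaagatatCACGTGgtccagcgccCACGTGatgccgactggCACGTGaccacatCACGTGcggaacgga
Acta1 (chr8:123894776-123895025, minus strand): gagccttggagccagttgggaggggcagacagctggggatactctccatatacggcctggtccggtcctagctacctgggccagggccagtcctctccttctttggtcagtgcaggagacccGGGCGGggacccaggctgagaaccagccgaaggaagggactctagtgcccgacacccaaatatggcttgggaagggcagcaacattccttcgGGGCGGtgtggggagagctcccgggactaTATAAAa
Klhdc4 (chr8:121829570-121829819, minus strand): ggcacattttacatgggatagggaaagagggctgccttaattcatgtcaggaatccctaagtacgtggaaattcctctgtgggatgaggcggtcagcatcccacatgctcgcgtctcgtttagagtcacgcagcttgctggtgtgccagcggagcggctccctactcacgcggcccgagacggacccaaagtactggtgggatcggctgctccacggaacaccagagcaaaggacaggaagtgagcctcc
The Lamp1 stretch holds 4 copies of CACGTG, a letter run that regulators of lysosomal genes are known to bind, at 61, 45, 28 and 15 bases before the start. The Acta1 stretch ends with TATAAA, 7 bases before the RefSeq start and 31 before the GENCODE start, and has 2 copies of GGGCGG. The Rpl13 stretch has 17 CpG and 1 GGGCGG, and the Klhdc4 stretch has 14 CpG and no match to the 4 motifs. A match describes letters and is not a shown binding site. Among members with a mean of at least 10 CPM (counts scaled by library size), the median promoter held 18 CpG where ESC was above all 6 colonies (269 promoters), 17 where the level was near even (35 promoters) and 17 where ESC was below all 6 (23 promoters), against 10 over 16514 promoters of all protein-coding genes. CACGTG was found in 7.43%, 11.4% and 13.0% of those members' promoters and in 6.79% of all. TATAAA was found in 5.95%, 5.71% and 8.70% of them and in 11.9% of all, GGGCGG in 65.8%, 54.3% and 65.2% and in 44.5% of all, and CCAAT in 36.4%, 31.4% and 26.1% and in 36.1% of all. The CpG medians of the 3 member classes lay within 1 CpG of each other. Unlike these classes, the set of all protein-coding genes had no bound on CPM, and the part of expression level in its differences from them was not tested.

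Library totals ran from 31139508 to 35728921 counts. Markers of pluripotent cells summed to 8158 CPM in ESC and 5806 to 6498 CPM in colonies, and all 10 were present in all 7 libraries. Of these, 8 were called higher in ESC and 1 lower, Lin28a, at 217 CPM in ESC and 354 to 385 CPM in colonies. Fibroblast feeder markers summed to 546 CPM in ESC and 934 to 1195 CPM in colonies, with 6 of 12 markers lower in ESC and none higher. Primitive endoderm markers summed to 274 CPM in ESC and 1054 to 2247 CPM in colonies, with 9 of 9 lower in ESC. B cell markers summed to 8.92 to 12.8 CPM over the 7 libraries, with Blk at 0 in all of them and Ms4a1 at 0 in 6. Y chromosome genes held 50 and 39 counts in M colonies 2 and 3, against 5714 to 13237 in the 5 other libraries. The part of other cell types in the differences below was not tested, and in bulk RNA fewer cells of a type cannot be told apart from less RNA per cell.

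In ESC, chromosome 8 genes took 5.33% of all autosomal protein-coding counts. In GC colonies they took 4.46%, 4.44% and 4.37%, and in M colonies 4.49%, 4.42% and 4.47%. The ESC library was above all 6 colonies, and the 2 colony groups overlapped. The median ESC minus iPSC difference over the 800 tested members was 0.28 on the log2 scale, 1.21-fold, while it was -0.02 over 14138 protein-coding genes of the other autosomes. Taken one colony at a time, the members' median ran from 0.26 against M colony 1 to 0.29 against M colony 2, so no single colony set it. The 18 other autosomes had medians from -0.07 (chromosome 18) to 0.06 (chromosome 17), and the X chromosome stood at -0.22. Of the 800 members, 605 were higher and 195 lower in ESC. As a description only, 250 members were past the edgeR threshold on the higher side in ESC (31.2%; 7.56% of all 20502 genes) and 36 on the lower side (4.5%; 8.76% of all). Nothing is read from these counts, since the contrast chose the chromosome and the 1 ESC library is assumed to vary like the colonies.

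**Figure D1:**
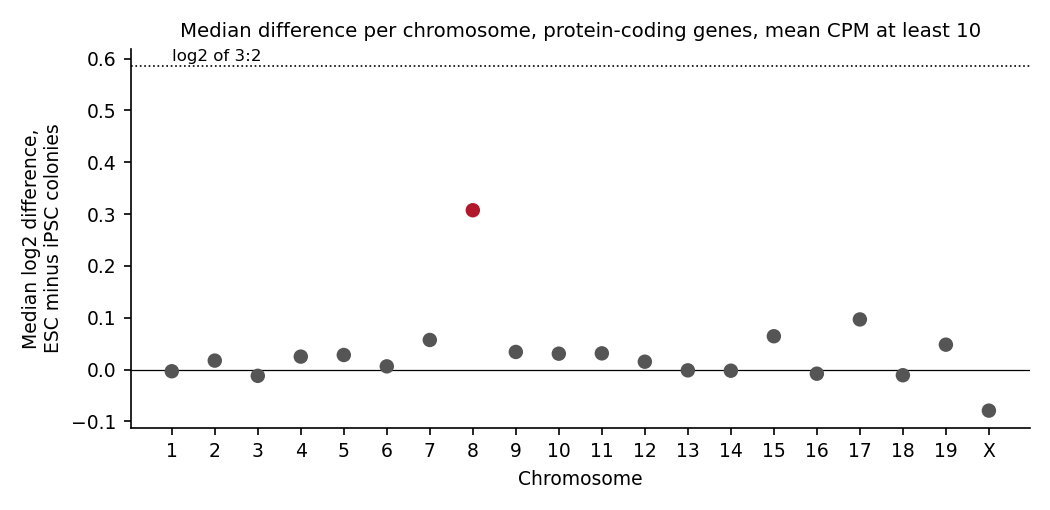
Median log2 difference (ESC minus the mean of both colony groups) of protein-coding genes with a mean of at least 10 CPM, 1 point per chromosome, with chromosome 8 in red and the dotted line at the log2 of 3:2. Chromosome 8 stands at 0.31, and the next highest, chromosome 17, at 0.10.

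The 519 members with a mean of at least 10 CPM had a median of 0.31 (1.24-fold), against 0.03 for 8623 genes of the other autosomes. ESC lay above all 6 colonies for 366 of these members (70.5%), where 34.9% of all genes at this level did so. ESC lay below all 6 for 41 members (7.9%), against 24.9% of all genes, and within the colonies' range for 112. The difference was positive for 85.7% of the members and for 54.2% of the genes of other autosomes. Only 63 members (12.1%) were at or above the 3 to 2 ruler, 382 lay between 0 and the ruler, and 74 were below 0. The ruler was reached by 3.49% of the genes of other autosomes. The middle of the distribution was higher throughout: the 25th, 50th and 75th percentiles were 0.14, 0.31 and 0.46 for members and -0.15, 0.03 and 0.19 for other autosomes. The gap between both sets was 0.46 at the 5th percentile and 0.19 at the 95th. The spread of the members, with an interquartile range of 0.32, was close to the 0.35 of the other autosomes.

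**Figure D2:**
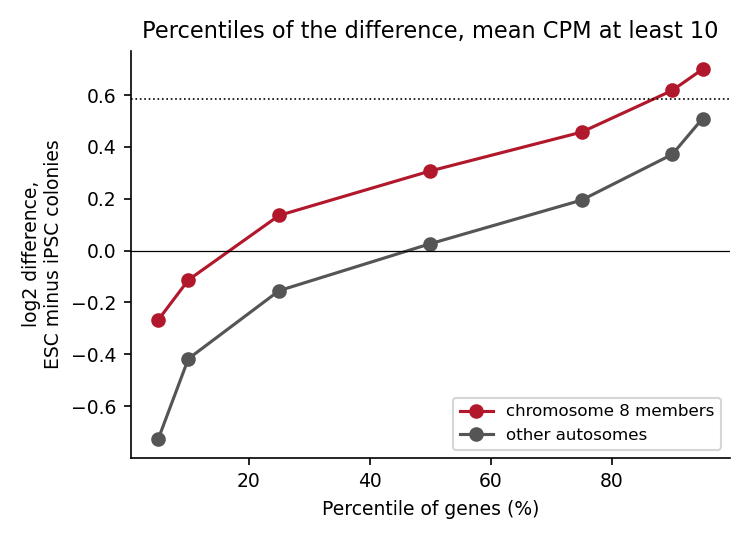
Percentiles of the ESC minus iPSC log2 difference for 519 chromosome 8 members (red) and 8623 genes of the other autosomes (grey), all with a mean of at least 10 CPM; the dotted line is the log2 of 3:2. The red line lies above the grey one at each percentile drawn, by 0.46 at the 5th and by 0.19 at the 95th.

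The size of the difference varied along the chromosome. Among members with at least 10 CPM, the 92 that start in the first 30 Mb had a median of 0.15 (1.11-fold), and ESC was above all 6 colonies for 44.6% of them. The 81 members from 30 to 70 Mb had a median of 0.28 (1.22-fold), with 66.7% above all 6. The 346 members from 70 to 130 Mb had a median of 0.34 (1.27-fold), with 78.3% above all 6. The bounds at 30 and 70 Mb were not part of the plan, which had 10 Mb windows. The proximal median was low against both kinds of colony, at 0.15 against GC colonies and 0.12 against M colonies, while the distal medians were 0.34 and 0.35. In 10 Mb windows at this level, a bound added with the values known, the lowest median was 0.08, in the first 10 Mb (20 members). The highest, 0.46, was between 90 and 100 Mb (30 members). Windows of the same size with at least 20 genes on other autosomes, 164 in all, had medians from -0.17 to 0.16. Of the 12 chromosome 8 windows with that many members, 10 were above the highest of them. Over all tested members, as planned, low windows were not confined to the proximal end. The lowest medians were 0.11 from 20 to 30 Mb and 0.12 from 60 to 70 Mb, against 0.14 in the first 10 Mb. The highest was 0.35, from 90 to 100 Mb. The first tested member is Insr, the insulin receptor, and the last is 2610044O15Rik8. Insr was at 27.8 CPM in ESC, at 18.6, 18.6 and 20.1 in GC colonies and at 22.01, 27.4 and 30.04 in M colonies, so ESC fell within the range of M colonies only. 2610044O15Rik8 was at 13.8 CPM in ESC and 9.26 to 14.3 CPM in the colonies, which overlap it.

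**Figure D3:**
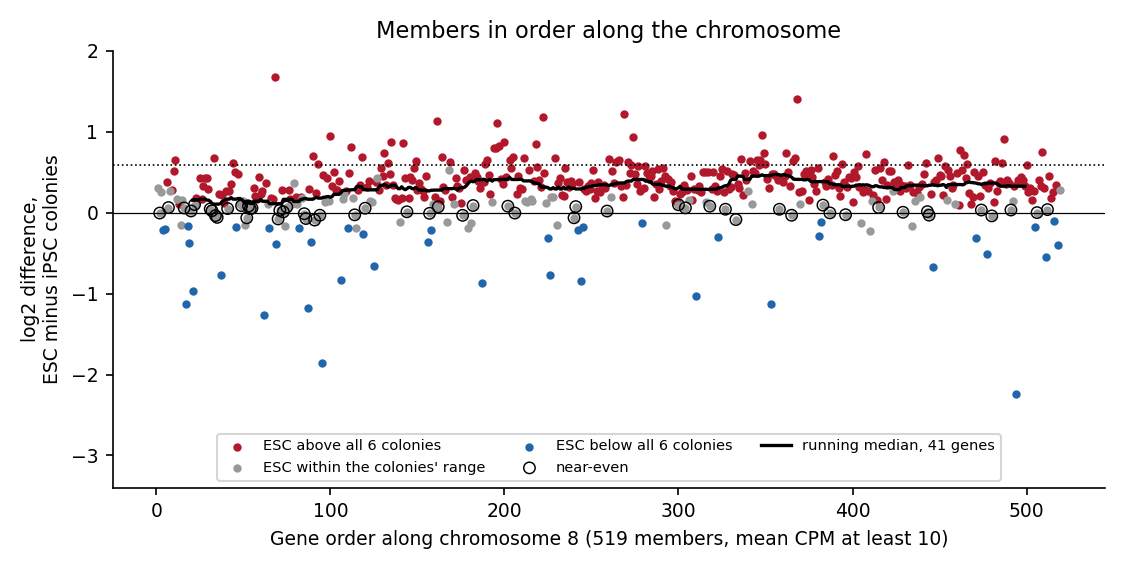
ESC minus iPSC log2 difference of the 519 members with a mean of at least 10 CPM, in their order along chromosome 8, coloured by the place of ESC among the 6 colonies; open circles are near-even members, the black line is the running median over 41 genes and the dotted line is the log2 of 3:2. The running median is lowest towards the left, where near-even members are dense, and stays above 0 over its whole length.

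Members of low level had a lower median difference and a wider spread than the others. The members were put into 3 classes of nearly equal size by their mean CPM over the 7 libraries, with bounds at 8.56 and 44.5 CPM. The lowest class had a median of 0.13 and an interquartile range of 1.35, the middle one 0.29 and 0.38, and the highest one 0.31 and 0.30. Genes of the other autosomes within the same bounds had medians of -0.27, 0.00 and 0.04. The members' median was above that of the other autosomes in each class, and the lowest class was centred lower in both sets. ESC was above all 6 colonies for 31.8%, 63.2% and 76.0% of the members in the 3 classes.

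The most expressed members show the shift in single libraries. Rpl13, a protein of the large ribosomal subunit (ENSMUSG00000000740, GRCm38 chromosome 8 from 123102350 to 123105244), was at 2447 CPM in ESC, at 1776, 1627 and 1423 in GC colonies and at 1562, 1492 and 1530 in M colonies. ESC stood clear of all colonies, while GC and M colonies overlapped. Ribosomal protein genes were not higher on this chromosome alone: the 71 named Rpl or Rps on other autosomes had a median ESC minus iPSC difference of 0.27, against 0.64 for Rpl13. Hmgb2, a chromatin protein of dividing cells, was at 870.9 CPM in ESC, at 534, 527 and 537 in GC colonies and at 547, 611 and 596 in M colonies. Cnot1, the scaffold of the CCR4-NOT complex that shortens mRNA tails, was at 800.3 CPM in ESC, at 488, 512 and 585 in GC colonies and at 514, 543 and 530.1 in M colonies. These 2 genes lay at log2 differences of 0.64 and 0.60, just past the ruler, and neither colony group reached the ESC value. Itgb1, the common beta chain of integrins that hold cells to their matrix, went the other way: it was at 364 CPM in ESC, at 454, 457 and 472 in GC colonies and at 510.3, 496 and 499 in M colonies. For Itgb1 each of the 6 colonies lay above ESC, at a log2 difference of -0.40.

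By function, 307 members belong to 14 lists and 303 of them were tested. In 12 lists the calls between ESC and colonies went one way or nearly so, and in adhesion genes and signalling genes they were mixed. Because the calls use the contrast that chose the chromosome, each list is given by its counts and its median, beside the medians of 0.28 over all members and -0.02 over other autosomes. The share called higher was 31.2% over all members and 7.56% over all genes, and the share called lower 4.5% and 8.76%, and nothing particular to a list is read from its count.

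Genes that copy and repair DNA had a median of 0.36, with 12 of 22 called higher in ESC and 0 lower. Mcm5, a subunit of the replicative helicase, was at 592 CPM in ESC, at 466, 454 and 457 in GC colonies and at 464, 456 and 443 in M colonies, a log2 difference of 0.37. Cdt1, which loads that helicase, was at 324 CPM in ESC and 212 to 240 CPM in colonies, a log2 difference of 0.50, and Chtf8, a part of an alternative clamp loader, differed by 0.31. ESC was above all 6 colonies for 18 of the 22. Genes of mitosis, the centromere and the centrosome had a median of 0.35, with 6 of 17 higher and 0 lower. Cenpt, a kinetochore protein, was at 142 CPM in ESC and 82.6 to 112 CPM in colonies, whereas Cdc16, a subunit of the anaphase-promoting complex, was only a little higher, at 109 CPM against 95.7 to 103. The chromatin and transcription list had a median of 0.27, with 18 of 43 higher and 1 lower. Nacc1, a BTB-domain transcriptional regulator of the pluripotency network, was at 426 CPM in ESC and 285 to 306 CPM in colonies, a log2 difference of 0.52. Ash2l, a core subunit of histone H3 lysine 4 methyltransferases, differed by 0.11 and lay within the range of the colonies.

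Of the RNA and protein machinery, the splicing and mRNA decay list had a median of 0.27, with 8 of 19 called higher and 0 lower. ESC was above all 6 colonies for 18 of the 19. Sf3b3, a subunit of the U2 snRNP, was at 742 CPM in ESC, at 516, 514 and 534 in GC colonies and at 521, 486 and 474 in M colonies. Ddx39, an RNA helicase of splicing and export, was nearer to even, at 310.1 CPM against 252 to 297. Genes of the ribosome, translation and tRNA charging had a median of 0.24, with 11 of 25 higher and 0 lower. Its tRNA synthetases differed in size: Aars, for alanine, was at 912 CPM in ESC and 626 to 665 CPM in colonies (0.51), while Kars, for lysine, was at 554 CPM and 452 to 475 CPM (0.25). Proteasome and ubiquitin genes had a median of 0.32, with 8 of 21 higher and 0 lower. Psmd7, a proteasome lid subunit, was at 261 CPM in ESC and 201 to 216 CPM in colonies. Usp10 and Otud4, both deubiquitinases, differed by 0.53 and 0.18. Secretory and endosomal genes had a median of 0.30, with 14 of 30 higher and 0 lower. Calr, a calcium-binding chaperone of the endoplasmic reticulum, was at 904 CPM in ESC, at 680.5, 657 and 717 in GC colonies and at 801, 731 and 851 in M colonies. Calr was thus above all colonies, though M colonies came nearest to ESC. Vps35, the core of the retromer, was at 272 CPM in ESC and 205 to 235 CPM in colonies.

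Genes of mitochondria and oxidative phosphorylation had a median of 0.35, with 11 of 24 higher and 0 lower. Cox4i1, a subunit of cytochrome c oxidase, was at 516 CPM in ESC, at 428, 393 and 338 in GC colonies and at 351, 344 and 344 in M colonies. Tomm20, an import receptor, differed by 0.26 and Slc25a4, the ADP/ATP carrier, by 0.45. Redox, metal and metabolic genes had a median of 0.32, with 10 of 25 higher and 1 lower. Slc7a5, the large neutral amino acid transporter, was at 518 CPM in ESC, at 328, 330 and 295 in GC colonies and at 374, 357 and 367 in M colonies. Mt1, a metal-binding metallothionein, differed by 0.48, and Prdx2, a peroxidase, by 0.33. Of the 5 telomere genes, Terf2 and Acd of the shelterin cap were called higher, and Terf2ip, Naf1 and Tnks were not, with a list median of 0.17. Of the 5 cell death genes 3 were called higher and 0 lower, with a median of 0.48.

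Adhesion and cytoskeleton was the one list with a median below 0, at -0.17, with 4 of 22 higher in ESC and 8 lower. Tpm4, a tropomyosin of actin filaments, was at 148 CPM in ESC, at 229, 220 and 227 in GC colonies and at 300.4, 251 and 305 in M colonies, so the 3 groups did not overlap. Dlc1 went the other way, at 342 CPM in ESC and 161 to 245 CPM in colonies. Beside this list, the feeder markers were lower in ESC (546 CPM against 934 to 1195 CPM), and so were those of primitive endoderm; the part of either in it was not tested. The receptor, ligand and signalling list had a median of 0.26, with 9 of 29 higher and 6 lower, spread from -1.86 (Nrg1, a ligand of ERBB receptors) to 1.68 (Sfrp1, a secreted Wnt antagonist). Gab1, an adaptor of receptor tyrosine kinases, was at 417 CPM in ESC and 323 to 344 CPM in colonies. Csnk2a2, a catalytic subunit of casein kinase 2, was at 209 CPM against 128 to 152 CPM, at the ruler with a log2 difference of 0.58, and Prkaca, a catalytic subunit of protein kinase A, differed by 0.49. Lineage transcription factors were mostly low, with a median of 0.12 and 2 of 16 called, both higher in ESC (Pbx4 and Nkx6-3). Foxc2 was at 2.61 CPM in ESC and 2.13 to 3.85 CPM in colonies, and Zfpm1, a GATA cofactor, at 26.4 CPM and 23.0 to 25.6 CPM.

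**Figure D4:**
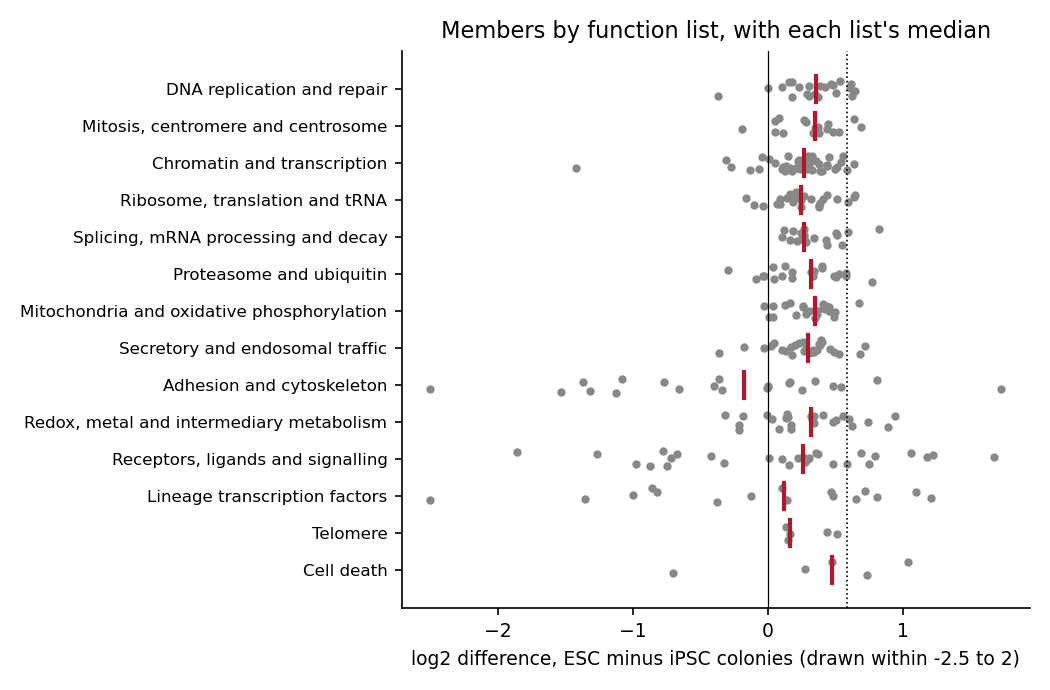
ESC minus iPSC log2 difference of each tested member of the 14 function lists (grey points) with the list's median (red bar); the dotted line is the log2 of 3:2, and points outside -2.5 to 2 are drawn at the edge. The red bar is right of 0 in 13 lists and left of 0, at -0.17, in adhesion and cytoskeleton.

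Away from the common shift, single members were much higher or lower in ESC. Sfrp1 (chromosome 8 from 23411502 to 23449632) was at 160 CPM in ESC, at 39.6, 41.2 and 39.5 in GC colonies and at 44.5, 71.3 and 71.4 in M colonies, 3.20-fold over the colonies' mean. Tppp3, a tubulin-binding protein, was at 56.1 CPM in ESC, at 23.0, 18.2 and 20.99 in GC colonies and at 20.8, 24.7 and 19.4 in M colonies. B3gnt3, a glycosyltransferase, was at 11.7 CPM in ESC, at 2.00, 2.44 and 2.38 in GC colonies and at 1.86, 5.39 and 8.43 in M colonies. For all 3 genes ESC was above each colony, and B3gnt3 and Sfrp1 varied most among M colonies. The other members with the largest differences, Ccdc113, Gm3336, Sgo2b, Sh2d4a, Adgre5, Pbx4 and Jph3, lay between log2 differences of 1.19 and 1.65. Acta1, skeletal muscle actin (chromosome 8 from 123891769 to 123894751), was at 7.81 CPM in ESC, at 36.6, 32.1 and 28.4 in GC colonies and at 29.3, 49.7 and 46.5 in M colonies, a log2 difference of -2.24. Nrg1 was at 3.62 CPM in ESC, at 12.8, 10.9 and 10.7 in GC colonies and at 15.1, 13.2 and 16.5 in M colonies. Both were lower in ESC than in any colony. Cdh5, a cadherin of endothelium, was the lowest, at 0.335 CPM in ESC and 1.32 to 2.97 CPM in colonies, and Rnf150, Vat1l, Trim67, Ddx60, Pdlim3, Irf2 and Slc5a5 lay between -1.79 and -1.40.

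Members at an even level are the candidates for dosage compensation that the rule asked for. A member was called near-even where its mean was at least 10 CPM, its log2 difference lay between -0.1 and 0.1, and ESC was within the range of the 6 colonies. That held for 54 of 519 members (10.4%), against 26.5% of all genes at this level and 27.9% on the other autosomes. Both colony groups are averaged here, so a member can be near-even where they differ. Slc7a6, one of the 54, was at 69.9 CPM in ESC, at 62.3, 55.7 and 63.6 in GC colonies and at 88.3, 65.7 and 89.4 in M colonies. It was called higher in M than in GC colonies (below). Around the members' own median of 0.31, 168 of the 519 (32.4%) lay within 0.1, and 55 (10.6%) lay between -0.1 and 0.1. A band at the middle of the values holds many of them by its place. Whether even members form a group of their own was therefore not tested. Near-even members were more frequent at the proximal end: 22 of 54 (40.7%) started in the first 30 Mb, which holds 92 of the 519 (17.7%). They made up 23.9% of members in the first 30 Mb and 7.49% of those from 30 to 130 Mb, beside the 26.5% of all genes. Both this share and the lower proximal median come from the same differences, so it restates that median and is no separate result. In level and colony spread they were like the rest: their median was 49.8 CPM, against 46.7 for the other 10 CPM members, and their median coefficient of variation over colonies was 8.28%, against 7.84%. Their median gene span was 26.4 kb, against 21.8 kb. Values just inside the bound were 0.0999 for Naxd, 0.0974 for Fbxw9 and 0.0930 for Dus2, and those just outside were 0.103 for Lpar2 and Emc8 and 0.105 for Mcph1.

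The most expressed near-even members came from several compartments. Lamp1, the main lysosomal membrane protein (chromosome 8 from 13159161 to 13175338), was at 360.5 CPM in ESC, at 351, 321 and 334 in GC colonies and at 396, 343 and 386 in M colonies. Ankrd11, a chromatin regulator, was at 237 CPM in ESC, at 194, 225 and 282 in GC colonies and at 266, 252 and 243 in M colonies. Pcm1, the scaffold of centriolar satellites, was at 173 CPM in ESC, at 148, 153 and 199 in GC colonies and at 167, 167 and 165 in M colonies. In these 3 genes ESC lay amid the colonies, and for Ankrd11 and Pcm1 GC colony 3 was the highest library. Gcsh, a carrier of the glycine cleavage system, was at 123 CPM in ESC and 106 to 137 CPM in colonies. Bcar1, a focal adhesion scaffold, was at 119 CPM in ESC and 112 to 132 CPM in colonies. Piezo1, a mechanically gated channel, Man2b1, a lysosomal mannosidase, Ckap2, a spindle protein, Hmgxb4 and Arhgef18 differed by -0.06 to 0.08. Of the 54 near-even members 29 belong to a function list, as do 257 of the 519 members at this level. The 3 near-even secretory and endosomal genes were Lamp1, Vps36 and Cog8, at log2 differences of 0.02, 0.05 and -0.03, in a list whose median was 0.30.

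M colonies were then compared with GC colonies, the contrast that did not choose the chromosome. The sort cannot be told apart from the donor mouse in it, since the labels name no donor. The members' median deviation from the colonies' mean was 0.006, 0.000 and -0.032 in GC colonies and 0.011, 0.002 and -0.001 in M colonies on the log2 scale. The groups overlapped, and the difference of 0.01 between their means, -0.01 ± 0.02 in GC and 0.004 ± 0.006 in M colonies (SD, n = 3 each), had an exact two-sided permutation p = 0.5, where 3 against 3 can go no lower than 0.1. Without GC colony 1 the difference was 0.0231, with an exact permutation p = 0.1, the smallest that 2 against 3 can give, and without GC colony 3 it was -0.00159 (exact permutation p = 0.9). Single members did differ: of 763 tested, edgeR called 15 higher in M colonies (1.97%; 1.7% of all 18166 genes) and 13 lower (1.7%; 2.27% of all). These shares are near the background, so chromosome 8 was not marked by many calls in this contrast. The 2 groups did not overlap for any of the 28 called members. The calls select for such separation, and its share over all tested genes was not counted, so it adds no support to them. The labels do not tie colonies to mice, so each p measures the spread among these colonies only. Without GC colony 2, 2 were higher and 6 lower, and without M colony 3, 3 and 6; of the 20 members named here by size, Tex15, Klhdc4, Olfr374, Ddx60, Hydin, Jak3 and Adgre5 passed with any 1 colony left out. Inpp4b lost its call only without M colony 3, Adgrg5 only without GC colony 2, and Zfp869, Gm10282 and Triml1 without either of these, while Car7, Sfrp1, Insr, Efnb2, Slc7a6, Irs2, Fam90a1a and Triml2 lost it in 3 to 5 of 6 such runs. Without both M colonies with few Y counts, which leaves 1 M library assumed to vary like the others, Klhdc4, Gm10282, Slc7a6, Inpp4b, Adgrg5, Jak3 and Adgre5 kept their call among the 20.

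Among signalling genes, Jak3, the kinase of cytokine receptors with the common gamma chain, best known in lymphocytes (ENSMUSG00000031805), was lower in M colonies. It stood at 61.6, 65.0 and 64.4 CPM in GC colonies, at 44.4, 35.4 and 30.1 in M colonies, and at 109 in ESC. Jak3 fell by 0.80 ± 0.11 (SE) in log2 units (edgeR adjusted p = 0.00195). Adgre5, the adhesion receptor CD97, which is abundant on leukocytes, was at 39.4, 42.6 and 43.0 CPM in GC colonies, at 24.2, 29.9 and 25.2 in M colonies and at 76.9 in ESC. It fell by 0.65 ± 0.10 (SE) in M colonies (edgeR adjusted p = 0.00226); its gene overlaps Ddx39 on the opposite strand, and reads of both cannot be told apart if strand was not used. In both genes the M colonies lay farthest from ESC, and B cell markers summed to 8.92 to 12.1 CPM in the 6 colonies. Sfrp1 was higher in M colonies, at 44.7, 71.7 and 72.0 CPM against 39.9, 41.6 and 39.8 in GC colonies, by 0.64 ± 0.14 (SE) (edgeR adjusted p = 0.0269). M colony 1 stayed close to GC colonies, and the call was lost without M colony 2, without M colony 3 or without any of the GC colonies, with an edgeR adjusted p of at most 0.160. Insr and Irs2, the insulin receptor and its substrate, were both higher in M colonies. Insr rose by 0.47 ± 0.12 (SE) (edgeR adjusted p = 0.0442), and Irs2 from 35.99 ± 1.16 to 47.3 ± 2.7 CPM (SD, n = 3 each; edgeR adjusted p = 0.0148). Efnb2, an ephrin ligand, rose from 18.4 ± 1.3 to 25.1 ± 2.5 CPM (edgeR adjusted p = 0.0328), and ESC was lower than any colony for Efnb2 and Irs2.

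Of genes known from the germ line, Tex15, needed for meiosis and transposon silencing in the testis (chromosome 8 from 33516738 to 33585582), was at 4.98, 5.66 and 7.21 CPM in GC colonies, at 9.49, 18.5 and 18.5 in M colonies and at 10.4 in ESC. Tex15 rose by 1.38 ± 0.23 (SE) in log2 units (edgeR adjusted p = 0.00506), but by only 0.68 without M colonies 2 and 3 (edgeR adjusted p = 0.252). Triml1 and Triml2, neighbouring tripartite-motif genes of the early embryo, were lower in M colonies. Triml1 was at 75.3, 79.7 and 73.3 CPM in GC colonies and at 62.4, 49.0 and 44.9 in M colonies (edgeR adjusted p = 0.0116). Triml2 was at 124, 125 and 135 CPM in GC colonies and at 114, 87.9 and 83.0 in M colonies (edgeR adjusted p = 0.0355). M colonies 2 and 3, the libraries with few Y counts, were the lowest for both, and these are also the highest M libraries for Tex15. Ddx60, a helicase of antiviral defence, went from 5.67 ± 0.74 to 2.24 ± 0.51 CPM (edgeR adjusted p = 0.00414), and Hydin, a protein of motile cilia, from 12.5 ± 1.1 to 5.94 ± 1.26 CPM (SD, n = 3 each; edgeR adjusted p = 0.00285). Without M colonies 2 and 3 the edgeR adjusted p was 0.122 for Ddx60 and 0.0840 for Hydin.

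Klhdc4, a kelch-domain gene (chromosome 8 from 121796313 to 121829569), had the smallest adjusted p of the members. It was at 39.4, 37.9 and 38.5 CPM in GC colonies, at 58.7, 55.4 and 53.8 in M colonies and at 62.2 in ESC. Klhdc4 rose by 0.54 ± 0.07 (SE) in log2 units (edgeR adjusted p = 0.00142), and M colonies lay near ESC. Olfr374, an olfactory receptor gene, was at 0.336, 0.923 and 0.949 CPM in GC colonies and at 0 counts in all 3 M colonies and in ESC. Against a floor of 3 counts in each M library, 0.0928 CPM, it was at least 7.93-fold lower in M colonies, and its call was lost without M colonies 2 and 3 (edgeR adjusted p = 0.0769). Inpp4b, a phosphoinositide phosphatase, went from 1.54 ± 0.20 to 0.122 ± 0.159 CPM (edgeR adjusted p = 0.00925), and rested on 12 counts in all M colonies together. Adgrg5 and Fam90a1a were also lower in M colonies and also low in level, with M means of 0.818 and 0.367 CPM. Car7, Zfp869, Gm10282 and Slc7a6 were higher in M colonies by 0.42 to 1.27 on the log2 scale. The other 8 called members moved less: Zfhx3, Cmtm4, Tpm4, Cyb5b and Egln1 were higher by 0.29 to 0.38, and Cenpt, Zfp330 and Gipc1 lower, by -0.36 to -0.31. Tpm4, called here, moved beside primitive endoderm markers, whose sum was 1054 to 1312 CPM in GC and 1286 to 2247 CPM in M colonies with 2 of 9 called higher; their part in it was not tested.

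**Figure D5:**
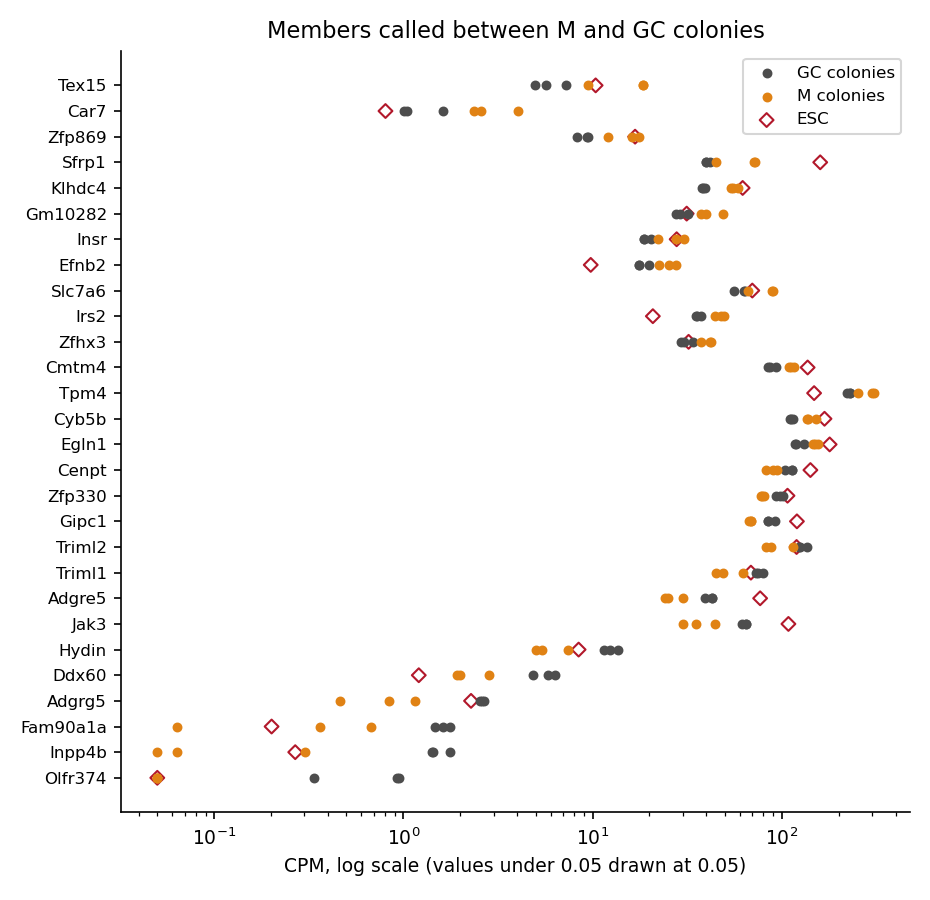
CPM (log axis) of the 28 members called between M and GC colonies, with 1 point per colony in the 6-library fit and a diamond for ESC in the 7-library fit, ordered by the log2 difference; values under 0.05 are drawn at 0.05. GC and M points do not overlap in any row, which the calls select for, and ESC lies above both groups for Sfrp1, Adgre5 and Jak3, among others.

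Some gene families of chromosome 8 gave few counts. All 46 defensin genes, which encode antimicrobial peptides of gut and skin, went untested, and 42 of them had 0 counts in the 7 libraries. Of 19 carboxylesterase genes 2 were tested and 9 had 0 counts, and of 5 olfactory receptor genes 1 was tested and 3 had 0 counts. All 23 zinc finger genes named Zfp were tested. In all, 225 members did not pass the filter, 122 of them with 0 counts in all 7 libraries, and no untested member had more than 10 counts in a library. These genes were not tested in the main fit, so nothing is said of a difference in them.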

How the data were processed

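Poly-A RNA of 7 cultures was analysed from the count of each Ensembl gene as the authors deposited it, raw and not normalized. STAR 2.7.10a, featureCounts 2.0.6 and the build mm10 (GRCm38) are named in the submitters' processing notes. Per the labels, the library was either non-stranded or directional, since the design text and the sample protocol differ, and whether strand was used in counting was not given in the sources used here. Genes were matched to GENCODE release M21. In R 4.3.3, filterByExpr left 20502 genes in 7 libraries and 18166 in the 6 colonies, scaled with TMM factors; the test was edgeR 4.0.16's quasi-likelihood F test, two-sided. Calls have a Benjamini-Hochberg adjusted p under 0.05 over all genes tested. The ESC difference is ESC minus the mean of both colony groups as fitted by edgeR, and CPM is TMM-scaled. A prior count of 2 was used only for the log2 medians of single libraries. Where M and GC colonies are compared in the Results, the colony CPM of members come from the fit of the 6 colonies. ESC values, and colony CPM elsewhere, come from the fit of 7 libraries. DESeq2 1.42.0, other filters and scalings and runs with a colony left out were alternatives, and the fit was tested on simulated data. Depth was 31139508 to 35728921 counts a library, and 3 counts were taken as the floor of a count of 0, for counting error only. Promoters are the RefSeq start nearest to the GENCODE start. Named genes are the 10 members with the highest mean CPM, the 10 with the largest and the 10 with the smallest ESC difference at a mean of at least 1 CPM, the 10 largest calls between M and GC colonies each way, the 10 highest near-even members, the 3 highest of each list with any of the above, and the first and last tested member; the remaining called and list members were named after their values were seen, and a few genes that the rule names are not reported here. The members, lists and rules were chosen with earlier results of these data known.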

Additional observations from a re-analysis of the deposited data

Results flagged for a closer look

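For 4 members the ESC library lay between the colony groups, with each GC colony above it and each M colony below it. The M minus GC log2 differences were -0.43 for Triml2, -0.55 for Triml1, -1.07 for Hydin and -1.67 for Adgrg5. In the fit of all 7 libraries, Triml1 was at 68.8 CPM in ESC, 72.7 to 79.0 CPM in GC colonies and 44.5 to 62.1 CPM in M colonies. Adgrg5 was at 2.28 CPM in ESC, 2.53 to 2.64 CPM in GC colonies and 0.458 to 1.14 CPM in M colonies. With 1 ESC library, the difference between the groups' distances to ESC was not tested beyond the M against GC test itself.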

How the results depend on the processing

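The count of members called between M and GC colonies depended most on the setting. It was 15 higher and 13 lower as reported, 27 and 22 with DESeq2, 30 and 24 without the filter, and 5 and 6 without M colonies 2 and 3. With 1 colony left out it ran from 2 to 20 higher and from 6 to 18 lower. The replicate block gave 20 and 19, with all 28 members among the 39. Same-numbered colonies had correlations of 0.07, 0.07 and 0.16, each above those of differently numbered colonies, which ran from -0.14 to 0.06. The labels do not say that the numbers pair the colonies, so the main fit had no block, and pairing was not tested. The chromosome's M minus GC median under that block stayed at 0.01, with an exact permutation p = 0.25, the smallest that 3 pairs allow. That median ran from -0.00159 (without GC colony 3, p = 0.9) to 0.0231 (without GC colony 1, p = 0.1, the smallest that 2 against 3 can give) in exact permutation tests with 1 colony left out. The ESC minus iPSC median of 0.28 was 0.29 with TMM factors from other chromosomes, 0.21 with library totals alone, 0.26 without the filter and 0.31 at 10 CPM; DESeq2 and no filter moved the median of all genes from -0.02 to -0.18 and -0.17, since they test more low genes. The 54 near-even members became 85 with library totals, 29 within 0.05 and 101 within 0.2. Over all tested members, 10 Mb window medians ran from 0.11 to 0.35; in 5 Mb windows they ran from -0.60 (100 to 105 Mb, 16 members, 0.41 over its 7 members at 10 CPM) to 0.59, and at 10 CPM, which was added with the values known, from 0.0832 to 0.459. Classes by CPM per kb of exons, also added then, gave 0.11 and 0.33 for the lowest and highest class, against 0.13 and 0.31. No named gene reversed; 56 of 257 M against GC results of named genes lost their call under an alternative. Members under 3 counts cannot show a difference of this size.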

Other observations

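The largest difference between the colony groups on chromosome 8 lay in a gene that is no member. Gm42047 is a lincRNA (ENSMUSG00000110631, GRCm38 chromosome 8 from 121833247 to 121841178), 3.68 kb from the start of Klhdc4, and was singled out after its values were seen. It had 11856 counts in ESC, 2, 0 and 0 counts in GC colonies, and 11457, 11419 and 11207 counts in M colonies. It was thus near 397 CPM in ESC and 342 to 355 CPM in M colonies, and at or under the floor in all GC colonies, with an edgeR adjusted p = 6.60e-14. The 5 other non-coding genes among the 4 nearest on each side held at most 20 counts in any library. Klhdc4, on its other side, was higher in M colonies (above), whereas Slc7a5, 40.0 kb away, was at 295 to 330 CPM in GC and 357 to 374 CPM in M colonies and was not called.

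Among non-coding genes of chromosome 8, the median of long non-coding genes lay above that of other autosomes, and the median of pseudogenes did not. The 122 tested long non-coding genes had a median ESC minus iPSC log2 difference of -0.11, against -0.26 for 2255 such genes on other autosomes, and ESC was above all 6 colonies for 18.9% and 11.9% of them. The 95 pseudogenes had a median of 0.13, against 0.16 for 2135 on other autosomes, with ESC above all 6 colonies for 26.3% and 24.0% of them. Such reads may belong to closely similar copies elsewhere. Gm8730, a processed pseudogene, was at 440 CPM in ESC and 357 to 442 CPM in colonies.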
